A study of Mus musculus with 8 samples.

Results

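The genes of the thick ascending limb and the distal convoluted tubule followed here are Umod, Egf, Casr, Ptger3, Trpm6, Pvalb and Cnnm2, measured in the renal cortex of aged and young mice. They were chosen by symbol as genes of these segments outside the Slc, Cldn and Kcn families, and all 7 were found among the 22609 genes of the count table. The rule itself uses no measured value. RNA-Seq was performed on kidney cortex from 4 aged (30 months) and 4 young (5 months) male C57BL6 mice, with 1 library per mouse. None of the mice received a treatment, so the groups differed by age alone as far as the labels say, and the study asked which genes differ in level between the age groups. A bulk library cannot tell fewer cells of a type apart from less RNA per cell. The p-values set each age difference against the variation between libraries of 1 mouse each, in which mouse and tissue piece cannot be separated.

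The thick ascending limb reabsorbs sodium chloride through the transporter encoded by Slc12a1 and sets up the voltage that drives calcium and magnesium between the cells. The distal convoluted tubule follows it, reabsorbs sodium chloride through the product of Slc12a3 and fine-tunes magnesium and calcium in the urine. Umod encodes uromodulin, the most abundant protein of normal urine, which thick limb cells release from their apical membrane. Egf encodes the epidermal growth factor precursor, which is made in the thick limb and distal convoluted tubule, and the growth factor acts on magnesium uptake by the magnesium channel encoded by Trpm6. Casr encodes the calcium-sensing receptor and Ptger3 the prostaglandin E2 receptor EP3, and both restrain salt transport in the thick limb. Pvalb encodes parvalbumin, a calcium buffer of the early distal convoluted tubule, and Cnnm2 a basolateral membrane protein needed for magnesium balance.

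On mm9 the 7 genes lie on 5 chromosomes. Umod spans chr7:126606380-126622769 on the minus strand with 11 exons in its longest coding transcript. Egf (chr3:129380493-129458240, minus, 24 exons) and Ptger3 (chr3:157229856-157307722, plus, 2 exons) share a chromosome. So do Trpm6 (chr19:18824473-18967000, plus, 39 exons) and Cnnm2 (chr19:46836086-46953285, plus, 7 exons). Casr lies at chr16:36493782-36562227 (minus, 7 exons) and Pvalb at chr15:78021544-78036830 (minus, 4 exons). For each of the 7, 0% of the 100 nt windows of the longest coding transcript occurred without a mismatch in another coding transcript, and 0 exonic nt were shared with a gene on the same strand, so no identical stretch was found that could share their reads.

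Promoter windows from 250 bases before to 50 bases after the start of the gene were taken from RefSeq on GRCm38.p6, where 7 of 7 genes had 1 or more. Those of Umod, Egf and Casr are shown because these genes moved together from library to library. That of Trpm6 is shown because its difference had the opposite sign. Egf had a further window (chr3:129725037-129725336, minus) that is not shown. The windows shown lie at chr7:119479213-119479512 (minus), chr3:129755273-129755572 (minus), chr16:36562085-36562384 (minus) and chr19:18749480-18749779 (plus).
Umod: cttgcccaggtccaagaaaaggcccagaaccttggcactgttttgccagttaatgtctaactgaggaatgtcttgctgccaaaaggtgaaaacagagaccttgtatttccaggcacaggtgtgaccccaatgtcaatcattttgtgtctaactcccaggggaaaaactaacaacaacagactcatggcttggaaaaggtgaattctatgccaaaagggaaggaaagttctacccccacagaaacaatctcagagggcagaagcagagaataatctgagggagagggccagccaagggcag
Egf: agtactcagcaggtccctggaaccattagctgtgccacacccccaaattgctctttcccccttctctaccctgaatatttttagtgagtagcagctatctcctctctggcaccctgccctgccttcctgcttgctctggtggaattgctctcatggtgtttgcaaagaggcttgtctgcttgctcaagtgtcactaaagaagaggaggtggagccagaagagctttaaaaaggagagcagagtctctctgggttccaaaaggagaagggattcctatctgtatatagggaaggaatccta
Casr: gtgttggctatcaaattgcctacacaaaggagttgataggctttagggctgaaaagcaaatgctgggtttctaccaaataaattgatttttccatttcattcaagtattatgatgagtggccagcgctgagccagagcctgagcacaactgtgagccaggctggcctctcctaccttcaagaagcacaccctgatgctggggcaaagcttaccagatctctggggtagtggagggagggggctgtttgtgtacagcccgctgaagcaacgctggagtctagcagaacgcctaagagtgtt
Trpm6: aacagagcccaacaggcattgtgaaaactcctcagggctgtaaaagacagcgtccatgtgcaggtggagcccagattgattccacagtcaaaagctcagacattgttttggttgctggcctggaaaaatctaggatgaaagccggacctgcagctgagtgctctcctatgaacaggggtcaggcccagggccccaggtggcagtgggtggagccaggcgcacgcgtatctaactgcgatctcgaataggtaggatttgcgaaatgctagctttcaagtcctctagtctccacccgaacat
Each window is written on the strand of its gene. No part is in capitals, since none of the motifs searched on both strands was found. Other motifs, including a planned one, were not searched, and the windows may hold them. AAGGTCA (in 4.72% of 32851 promoter windows of the same length), the E-box CACGTG (7.15%) and TTANGTAA (2.32%) were found in none of the 7 genes' windows, which says only that these letters are not in these windows.

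Between 14820804 and 19821429 read pairs per library were counted on genes, so that the floor of 3 counts was worth 0.151 to 0.202 CPM, that is counts scaled to the size of the library. For the levels given here, library sizes were also adjusted by TMM (trimmed mean of M-values). The library of aged mouse 1 stood apart. In aged mouse 1, 8 markers of the proximal tubule segments S1 and S2 summed to 9346 CPM, against 19416 to 22083 in the other aged and 19085 to 23197 in the young libraries. Its 8 principal cell markers summed to 663 CPM, against 368 to 445 in the other aged and 385 to 476 in the young libraries. These markers did not go 1 way. Aqp2 (271 CPM) and Aqp4 (187 CPM) were each the highest of the 8 libraries. Scnn1b (31.3 CPM), Scnn1g (27.1 CPM) and Hsd11b2 (47.8 CPM) were each the lowest. Aqp3, Avpr2 and Fxyd4 lay within the range of the other libraries. Slc14a2, a urea transporter gene of the inner medulla, had 1817 counts in aged mouse 1, 433 counts in young mouse 1 and between 0 and 6 counts in each of the other 6 libraries. Slc12a1 was at 1407 CPM in aged mouse 1 and 1545 CPM in young mouse 1, each the highest value of its group. The part of this difference between tissue pieces in the results was not tested. The age differences of the 7 genes are therefore also given without aged mouse 1 and without both of these mice.

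None of the 7 genes passed the test for a difference with age. In edgeR's quasi-likelihood test, calls required a fold change over 1.5 and an adjusted p (Benjamini-Hochberg) under 0.05, and 0 of the 7 genes were called against 2.06% of the 13944 genes tested. With an unadjusted p below 0.05, 3 of the 7 genes (Umod, Egf and Trpm6) stood against 25.5% of all genes tested. DESeq2 called 0 of the 7 and 6.26% of all genes, and limma-voom called 0 of the 7 and 1.96% of all genes. In CPM, the aged and young libraries overlapped for all 7 genes, while they did not overlap for 18.9% of all genes. The log2 fold change of aged against young was below 0 for 6 of the 7 genes, against 45.9% of all genes, and the median was -0.33 over the 7 genes and 0.03 over all genes. Pvalb was the only gene of the 7 whose estimate exceeded a fold change of 1.5.

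**Figure D1:**
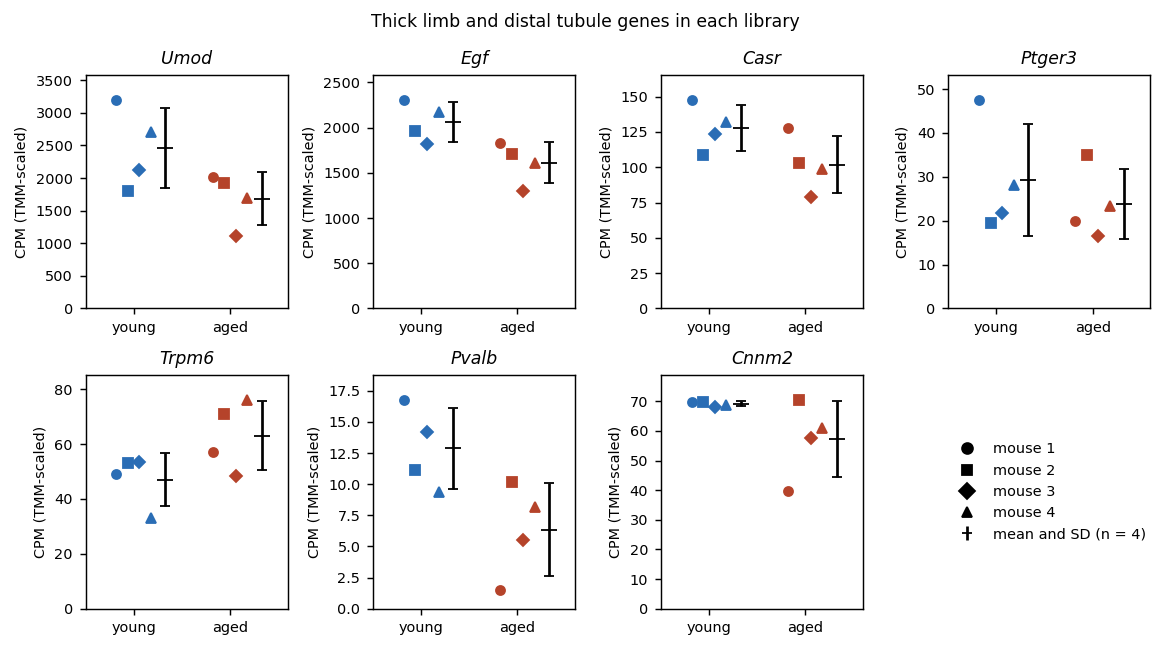
TMM-scaled CPM of each gene in the 4 young (blue) and 4 aged (red) libraries, with a symbol for each mouse number and the mean and SD (n = 4) beside each group. The groups overlap in every panel, aged mouse 1 is the lowest point for Pvalb (1.52 CPM) and Cnnm2 (39.9 CPM), and Trpm6 alone has the higher aged mean.

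Compared per length of exonic sequence, the genes covered a wide range of levels. Umod had a mean of 995 ± 251 CPM per kb in young and 682 ± 163 in aged mice (SD, n = 4) and ranked 23 among 13632 genes with a length, by the mean over all 8 libraries. Egf followed with 432 ± 46.1 CPM per kb in young and 337 ± 47.6 in aged mice (SD, n = 4), at rank 64. By the same mean, the salt transporter genes Slc12a3 and Slc12a1 ranked 88 and 186. In the aged mice, however, Egf lay below Slc12a3 (378 CPM per kb), in 3 of the 4 libraries. Casr was at 27.2 CPM per kb in young and 21.6 in aged mice (rank 2341), and Cnnm2 at 19.4 and 16.1 (rank 3253). Pvalb (12.4 and 6.10, rank 5662), Trpm6 (7.24 and 9.70, rank 6005) and Ptger3 (6.42 and 5.21, rank 7497) had the lowest levels per kb. Umod exceeded Egf, Egf exceeded Casr, Casr exceeded Cnnm2 and Cnnm2 exceeded Pvalb within each of the 8 libraries. Pvalb exceeded Trpm6 in all 4 young libraries and lay below it in all 4 aged libraries, so the order of these genes differed between the age groups. Trpm6 exceeded Ptger3 in 6 of 8 libraries. Over all libraries, Egf and Casr were the only neighbours in this order whose ranges did not overlap.

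Uromodulin mRNA was lower on average in the aged mice, without passing the adjusted threshold. Umod was at 2014, 1920, 1119 and 1689 CPM in the aged and at 3203, 1807, 2123 and 2708 CPM in the young mice, in the order of mice 1 to 4. Aged mice 3 and 4 lay below all young mice, aged mice 1 and 2 lay within the young range, and all 4 were below the young mean. The log2 fold change was -0.55 (SE 0.23, 95% confidence interval -1.07 to -0.02), or 1.46-fold lower in aged mice, with an unadjusted p of 0.0432 and an adjusted p of 0.183 by edgeR's quasi-likelihood test. The interval includes differences between 0.476 and 0.986 of the young level. Without aged mouse 1 the log2 fold change was -0.64 (adjusted p = 0.130), and without both mice with high Slc14a2 counts it was -0.49 (adjusted p = 0.271).

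Egf was at 1834, 1703, 1299 and 1608 CPM in the aged and at 2310, 1960, 1815 and 2178 CPM in the young mice. Aged mice 2, 3 and 4 lay below all young mice, and aged mouse 1 lay just above young mouse 3. For Egf the log2 fold change was -0.36 (SE 0.14, 95% confidence interval -0.68 to -0.04), with an unadjusted p of 0.0309 and an adjusted p of 0.155 by edgeR. DESeq2 gave an adjusted p of 0.0560, the smallest of any alternative for this gene. Without aged mouse 1 the difference was -0.43 (adjusted p = 0.0804), and without both mice with high Slc14a2 counts -0.37 (adjusted p = 0.187).

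The receptors of the thick limb differed from each other in their spread. Casr was at 128, 103, 78.8 and 98.5 CPM in the aged and at 148, 109, 124 and 132 CPM in the young mice, in the order of mice 1 to 4. Aged mice 2, 3 and 4 were below all young mice and aged mouse 1 was not. For Casr the log2 fold change was -0.33 (SE 0.15, adjusted p = 0.206 by edgeR), and it was -0.46 (adjusted p = 0.0659) without aged mouse 1 and -0.38 (adjusted p = 0.146) without both mice with high Slc14a2 counts. Ptger3 was at 19.9, 35.0, 16.6 and 23.4 CPM in the aged and at 47.6, 19.5, 21.7 and 28.2 CPM in the young mice. Its groups overlapped widely, with 3 aged mice inside the young range, and young mouse 1 was far above the other young mice. The log2 fold change of Ptger3 was -0.30 (SE 0.31, 95% confidence interval -1.01 to 0.41, adjusted p = 0.561 by edgeR). It was 0.03 (adjusted p = 0.954) without young mouse 1 and 0.11 (adjusted p = 0.850) without both mice with high Slc14a2 counts, so no direction can be given for this receptor.

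Among the magnesium genes, the apical channel and the basolateral protein had estimates of opposite sign. Trpm6 was at 57.1, 71.0, 48.3 and 76.1 CPM in the aged and at 49.2, 52.9, 53.3 and 32.9 CPM in the young mice. Aged mice 1, 2 and 4 were above all young mice, and aged mouse 3 was inside the young range. For Trpm6 the log2 fold change was 0.42 (SE 0.19, 95% confidence interval 0.00075 to 0.84), with an unadjusted p of 0.0497 and an adjusted p of 0.195 by edgeR. It was 0.47 (adjusted p = 0.174) without aged mouse 1 and 0.49 (adjusted p = 0.270) without both mice with high Slc14a2 counts. Cnnm2 was at 39.9, 70.4, 57.6 and 61.0 CPM in the aged and at 69.9, 69.8, 68.2 and 68.8 CPM in the young mice. The young mice were nearly equal (69.2 ± 0.803 CPM, SD, n = 4) and the aged mice were more spread (57.2 ± 12.8 CPM, SD, n = 4). Of the aged mice, 3 lay below all young mice and 1 only just above them (70.4 against at most 69.9 CPM). The log2 fold change of Cnnm2 was -0.27 (SE 0.15, adjusted p = 0.276 by edgeR) and -0.13 (adjusted p = 0.309) without aged mouse 1, with the same -0.13 (adjusted p = 0.455) without both mice with high Slc14a2 counts.

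Parvalbumin mRNA had the largest estimate of the 7 genes and the largest standard error. Pvalb was at 1.52, 10.2, 5.51 and 8.17 CPM in the aged and at 16.8, 11.1, 14.2 and 9.39 CPM in the young mice, from 31, 157, 103 and 150 counts and from 272, 210, 209 and 159 counts. Aged mouse 2 lay inside the young range and the other aged mice lay below it. For Pvalb the log2 fold change was -1.03 (SE 0.46, 95% confidence interval -2.07 to 0.02), or 2.04-fold lower in aged mice, with an unadjusted p of 0.0530 and an adjusted p of 0.202 by edgeR. Without aged mouse 1, which held the fewest counts, it was -0.70 (adjusted p = 0.127), and it was -0.54 (adjusted p = 0.265) without both mice with high Slc14a2 counts.

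Some of the 7 genes had a similar order over the libraries, and others did not. Aged mouse 1 had the highest aged value for Umod, Egf and Casr. Young mouse 1 had the highest young value for 6 of the 7 genes, and aged mouse 3 the lowest aged value for 5 of the 7, the exceptions being Pvalb and Cnnm2, which were lowest in aged mouse 1. Over the 8 libraries, log2 CPM of Umod, Egf and Casr went together, with Pearson's r of 0.951 for Umod and Egf, 0.956 for Umod and Casr and 0.932 for Egf and Casr. Pvalb and Cnnm2 formed another pair (r = 0.964), in which aged mouse 1 was the lowest library for both, while Trpm6 had r between -0.417 and -0.017 with the others. These values describe 8 libraries that differ in age group and tissue piece and share 1 scaling, and no test was made of them. Over the genes tested, the levels most like Umod were those of Slc39a8 (r = 0.980) and Gltp (0.975), and Slc39a8 was also the most like Egf (0.983), followed by Irx1 (0.973). The closest to Casr were S100a11 and Apoa4 (both 0.979), to Ptger3 Emp1 (0.938) and Tgif2 (0.929), and to Trpm6 Slc28a2 (0.958) and Ptprj (0.943). Pvalb was nearest to Dars (0.995) and Lekr1 (0.986), and Cnnm2 to Mbd3 (0.996) and Aldh16a1 (0.995). Pvalb and Cnnm2 each lay furthest from the young mean in aged mouse 1 (log2 difference -2.95 and -0.79). The part of that library in these values of r was not tested.

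**Figure D2:**
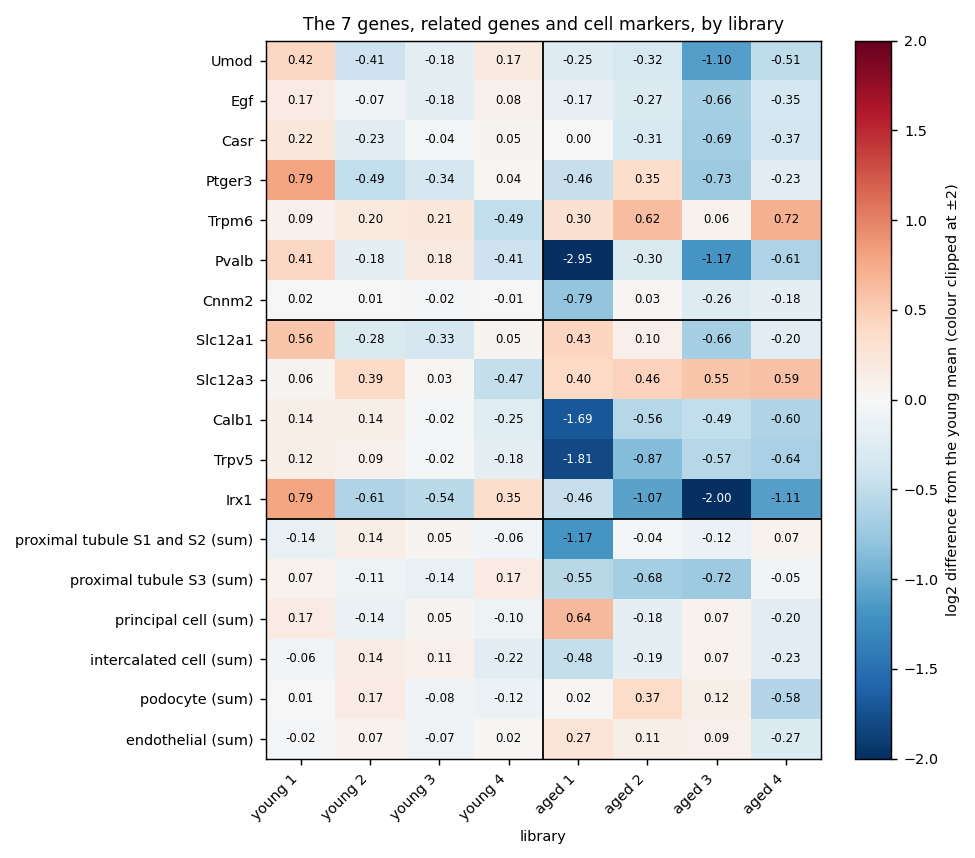
Log2 difference of each of the 8 libraries (columns) from the young mean for the 7 genes, for 5 genes of the same segments and for the summed levels of marker lists (rows), with the value printed in each cell and the colour limited to ±2. Pvalb in aged mouse 1 is at -2.95, Calb1 and Trpv5 are lowest in the same library, and Umod, Egf, Casr and Ptger3 are lowest in aged mouse 3.

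Ratios of counts within a library do not depend on library size or scaling, and were used to set each gene against the salt transporter of its own segment. Slc12a1 itself had a log2 fold change of -0.08 (SE 0.27, adjusted p = 0.872 by edgeR), which was -0.27 (adjusted p = 0.519) without aged mouse 1. Counts of Umod were 143%, 171%, 169% and 185.6% of those of Slc12a1 among the aged, and 207%, 210%, 255% and 249.1% among the young mice, in the order of mice 1 to 4. The age groups therefore did not overlap in this ratio, while 3.96% of all genes tested did not overlap in their ratio to Slc12a1, and the mean log2 ratio differed by -0.46 in aged against young mice (0.74 ± 0.16 against 1.20 ± 0.16, SD, n = 4). Without both mice with high Slc14a2 counts the difference was -0.44. Egf (-0.28), Casr (-0.26) and Ptger3 (-0.18) had ratios to Slc12a1 that overlapped between the groups, and without both of those mice the differences were -0.31, -0.32 and 0.13. No test was made of these ratios.

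In the distal convoluted tubule, the reference gene had an estimate above 0. Slc12a3 was at 1164, 1215, 1298 and 1328 CPM in the aged and at 919, 1156, 903 and 636 CPM in the young mice, with a log2 fold change of 0.47 (SE 0.17) that did not pass the threshold (adjusted p = 0.133 by edgeR). The groups did not overlap in Slc12a3 itself, and 30.9% of all genes tested did not overlap in their ratio to it, which is the level to set the next values against. Trpm6 had a log2 ratio to Slc12a3 of -4.33 ± 0.30 in aged and -4.26 ± 0.15 in young mice (SD, n = 4), a difference of -0.07 with overlapping groups. Relative to Slc12a3, whose aged mean was also the higher, Trpm6 therefore differed by less than the spread between mice. The log2 ratios of Egf (-0.86), Cnnm2 (-0.80) and Pvalb (-1.79) to Slc12a3 were lower in aged mice, with no overlap in any of these. Without both mice with high Slc14a2 counts they were -0.93 for Egf, -0.69 for Cnnm2 and -1.12 for Pvalb, and the difference for Trpm6 was -0.05.

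**Figure D3:**
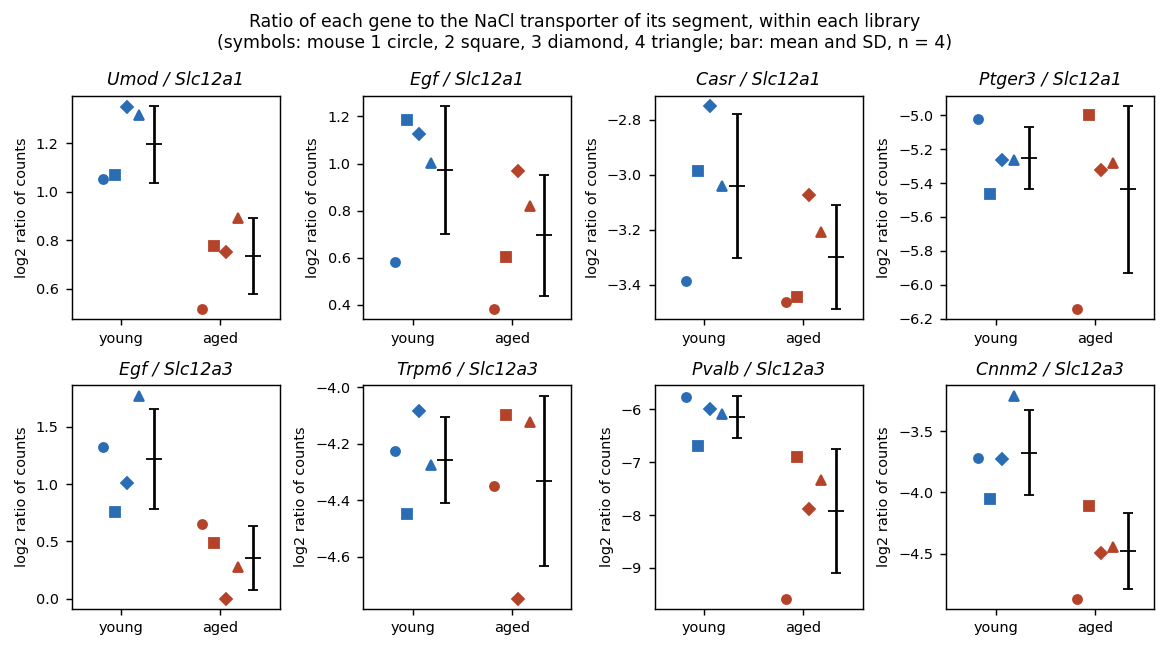
Log2 ratio of counts of each gene to Slc12a1 (thick limb) or Slc12a3 (distal convoluted tubule) in the same library, for 4 young (blue) and 4 aged (red) mice, with the mean and SD (n = 4); each panel has its own scale. Umod against Slc12a1 and Egf, Pvalb and Cnnm2 against Slc12a3 do not overlap between the groups, and the other ratios do.

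Other genes of the same segments and pathways set the 7 genes in context. Counts in these lists stand beside the shares of all genes tested. In CPM the groups did not overlap for 18.9%, and 25.5% had an unadjusted p below 0.05 by edgeR. Calls made up 2.06% by edgeR, 6.26% by DESeq2 and 1.96% by limma-voom. Of 12 other thick limb genes, 11 were tested and 0 were called (2 with an unadjusted p below 0.05, 1 by DESeq2, 0 by limma-voom), with a median log2 fold change of -0.28. This median was -0.14 without young mouse 1 and -0.13 without both mice with high Slc14a2 counts. The largest estimate among them was that of Irx1, a transcription factor gene (-1.19, SE 0.39, adjusted p = 0.108 by edgeR). Irx1 was called by DESeq2 (adjusted p = 0.0207) and by edgeR with the replicate number as a block (-1.17, adjusted p = 0.0490). Without young mouse 1 it was at -0.87 and was not called (adjusted p = 0.247 by edgeR). The potassium channel gene Kcnj1 (-0.18, adjusted p = 0.394) was not called. Of 13 other distal convoluted tubule genes, 13 were tested and 0 were called (5 with an unadjusted p below 0.05, 2 by DESeq2, 0 by limma-voom). Their median was 0.03, and it ranged from -0.02 to 0.06 with each mouse left out. The 5 genes were Slc12a3, above 0, and Kcnj10 (-0.20), Kcnj16 (-0.38), Trpv5 and Calb1, below 0. The calcium channel gene Trpv5 had the largest estimate (-0.91, SE 0.24, adjusted p = 0.0686 by edgeR), at 7.96, 15.4, 18.9 and 18.0 CPM in the aged and 30.5, 29.9, 27.7 and 24.7 CPM in the young mice. Calb1, which encodes the calcium buffer calbindin-D28k, was at 161, 353, 372 and 344 CPM in the aged and at 573, 573, 513 and 439 CPM in the young mice (log2 fold change -0.77, SE 0.24, adjusted p = 0.0998 by edgeR). DESeq2 called both Trpv5 (adjusted p = 0.00625) and Calb1 (adjusted p = 0.0209). Neither gene's groups overlapped, and like Pvalb both were lowest in aged mouse 1. Without that mouse, Trpv5 was called (-0.69, adjusted p = 0.0184) and Calb1 reached an adjusted p of 0.0274 with an estimate of -0.56, under the fold required. Without both mice with high Slc14a2 counts, neither was called (adjusted p of 0.0582 for Trpv5 and 0.0797 for Calb1).

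**Figure D4:**
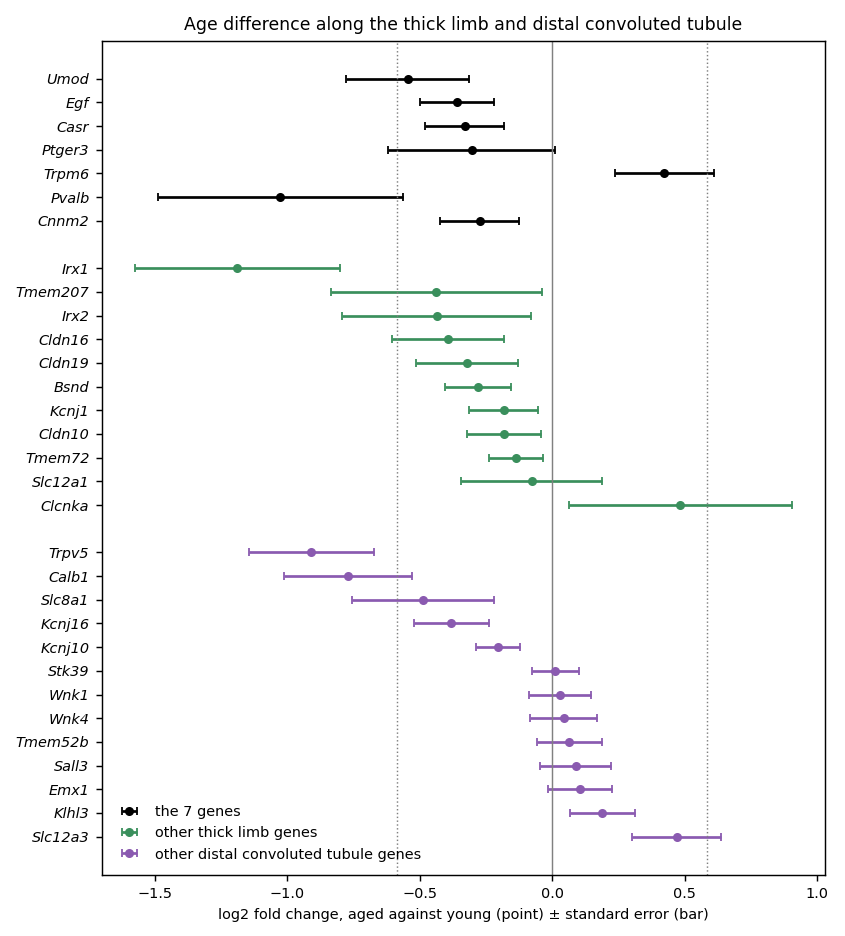
Log2 fold change of aged against young (point) with its standard error (bar) for the 7 genes (black), other tested thick limb genes (green) and other tested distal convoluted tubule genes (purple); dotted lines mark a fold change of 1.5 in either direction. Of the 7 genes, 6 lie below 0 and Trpm6 lies above it with Slc12a3. No gene shown was called in the main edgeR fit of all 8 libraries, while DESeq2 called Irx1, Trpv5 and Calb1.

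Among 15 other genes of magnesium handling, 15 were tested, 1 fell and 0 rose. Their median log2 fold change was 0.07, and leaving out aged mouse 1, 2 or 3 gave -0.12, -0.13 or -0.08. An unadjusted p below 0.05 was reached by 4 of them, and DESeq2 and limma-voom each called 1. Slc41a2, a gene of a magnesium transporter family, was at 23.1, 24.1, 18.4 and 29.0 CPM in the aged and at 45.1, 35.6, 36.2 and 37.9 CPM in the young mice. All aged values were below all young values, and the gene fell with age (log2 fold change -0.71, SE 0.14, adjusted p = 0.0400 by edgeR). The call was lost when aged mouse 2, aged mouse 3 or any 1 young mouse was left out (adjusted p up to 0.122), without both mice with high Slc14a2 counts (0.0998) and with the replicate number as a block (0.0568). Cnnm1 (0.70), Cnnm3 (0.41) and Cnnm4 (-0.17), the relatives of Cnnm2, and Trpm7 (0.13), the relative of Trpm6, were not called. Cnnm1 was at 53.1 CPM in aged mouse 1, against 18.4 to 21.6 in the other aged and 15.5 to 19.5 in the young mice. Cnnm3 was also highest in aged mouse 1, at 64.2 CPM against 38.0 to 47.0 in the other aged and 33.1 to 37.4 in the young mice.

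Of 10 other EGF ligands and EGF receptor family genes, 7 were tested, of which 1 fell and 0 rose. Of these 7, 3 had an unadjusted p below 0.05, and DESeq2 and limma-voom each called 1. The median was 0.26, and leaving out aged mouse 3, aged mouse 4 or young mouse 1 gave 0.52, 0.51 or 0.45. Hbegf, which encodes the ligand heparin-binding EGF-like growth factor, was at 11.9, 10.2, 9.46 and 14.6 CPM in the aged and at 20.1, 20.9, 19.8 and 22.7 CPM in the young mice. Its log2 fold change was -0.85 (SE 0.14, adjusted p = 0.0273 by edgeR), and the call was lost when aged mouse 2, aged mouse 3 or any 1 young mouse was left out (adjusted p up to 0.102) and without both mice with high Slc14a2 counts (0.0660). The ligand genes Btc (0.59, adjusted p = 0.111 by edgeR) and Tgfa (0.26, 0.787) had estimates above 0 and were not called. Tgfa was at 13.9, 4.03, 2.35 and 2.62 CPM in the aged and at 7.03, 3.60, 4.35 and 4.19 CPM in the young mice. Only aged mouse 1 lay above the young mice, and aged mice 3 and 4 lay below all of them. All aged values of Btc were above all young values. The receptor genes Egfr (0.20, adjusted p = 0.223), Erbb2 (0.50, 0.0995), Erbb3 (0.59, 0.294) and Erbb4 (0.03, 0.937) were not called. The ligand genes Areg, Ereg and Epgn had 7, 1 and 2 counts in all over the 8 libraries and were not tested. Of 6 feedback genes of the receptor, 0 were called (1 with an unadjusted p below 0.05, 0 by DESeq2 or limma-voom, median -0.02, from -0.15 without aged mouse 1 to 0.09 without aged mouse 3), and Spry4 had the largest estimate (-0.49, adjusted p = 0.0634).

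For the partners of Ptger3, 9 of 11 other prostaglandin E2 genes were tested and 0 were called (3 with an unadjusted p below 0.05, 0 by DESeq2 or limma-voom, median 0.06, which ranged from -0.11 without aged mouse 1 to 0.24 without young mouse 1), with the largest estimate in the synthase gene Ptges2 (-0.45, adjusted p = 0.0772 by edgeR). Ptgs2, which encodes the inducible cyclooxygenase, had 96 counts over all libraries and was not tested. For Casr, 8 of 8 genes of calcium-sensing and parathyroid hormone signalling were tested and 0 were called (2 with an unadjusted p below 0.05, 1 by DESeq2, 0 by limma-voom, median -0.09, from -0.13 without aged mouse 2 to -0.02 without aged mouse 1), and the parathyroid hormone receptor gene Pth1r had the largest estimate (-0.69, adjusted p = 0.0842). Of 6 genes related to uromodulin or to the processing of the 2 urinary proteins, 5 were tested, all 5 had estimates below 0 (median -0.25, and -0.13 without aged mouse 1) and 0 were called (1 with an unadjusted p below 0.05, 0 by DESeq2 or limma-voom). The largest estimate was that of Gp2 (-0.45, adjusted p = 0.274), a close relative of Umod. The list includes Hpn, which encodes hepsin, the protease that releases uromodulin (-0.38, adjusted p = 0.0802). Of 4 other calcium buffer genes, S100g (-0.14) and S100a1 (-0.21) were tested and not called, by any of the 3 tools and with 0 unadjusted p below 0.05, and Ocm and Calb2 were at 0 counts in each library.

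Markers of other cells of the cortex were counted beside these results. Among 8 markers of proximal tubule S1 and S2, edgeR called 0 (3 with an unadjusted p below 0.05, 3 by DESeq2, 0 by limma-voom). Among 6 markers of S3, edgeR called 0 (4 with an unadjusted p below 0.05, 2 by DESeq2, 1 by limma-voom), the median was -0.79 and the sum ranged from 4313 to 6882 CPM in aged and from 6434 to 7976 CPM in young mice. The 8 principal cell, 7 intercalated cell, 6 endothelial and 5 lymphocyte markers tested had 1 unadjusted p below 0.05 in each list, and the 5 podocyte and 3 thin limb or inner medulla markers tested had 0, with 0 calls by any of the 3 tools. Of 6 macrophage markers, Csf1r fell (-1.004, adjusted p = 0.0472 by edgeR) and the other 5 had estimates above 0. That call was lost when aged mouse 2, aged mouse 3 or any 1 young mouse was left out, without both mice with high Slc14a2 counts (adjusted p = 0.118) and with the replicate number as a block (0.0547). The part of these cells in the values of the 7 genes was not tested.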

How the data were processed

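RNA-Seq was performed on kidney cortex of 4 aged and 4 young mice. The authors extracted RNA with TRIzol, depleted ribosomal RNA, sequenced stranded libraries as paired ends of 100 bp, processed base calls with CASAVA 1.8.2 per the submitters' processing notes, aligned reads to mm9 with TopHat2 and used HTSeq-count for strand-specific counts per RefSeq gene. The deposited values are raw counts per gene without normalization, and 5 rows naming no gene were left out. Those rows (pairs on no gene, ambiguous or aligned to several places) held 59.4% to 64.5% of each table's sum. The single tables of each library were used, and the joint table differed from them in 0 cells. Ages are those of the labels, and the study's methods give another mean age for the aged mice.

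Counts were analyzed in R 4.3.3 with edgeR 4.0.16 (quasi-likelihood, TMM, filterByExpr with a minimum count of 10, no covariate), with Benjamini-Hochberg adjustment over all 13944 genes tested. The standard error was the size of the log2 fold change divided by the square root of F. Log2 CPM used a prior count of 2. Positions and lengths came from GENCODE on mm9, and 97.8% of genes tested had a length. Emr1 and D630042F21Rik were read as Adgre1 and Tmem52b.

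Alternatives were DESeq2 1.42.0, voom in limma 3.58.1, other scalings and filters, the replicate number as a block and each mouse left out. The fit without both mice with high Slc14a2 counts was chosen after seeing the data. The 7 genes and the gene lists were chosen with earlier results of these data known. By rule, the text names the 7 genes, Slc12a1, Slc12a3, every called list gene, the largest estimate in each pathway list and the 2 genes most like each of the 7. Kcnj1, Kcnj10, Kcnj16, Calb1, Hpn, S100g, Ptgs2, the principal cell markers and the relatives of Cnnm2, Trpm6 and Egf were named after their values were seen. Some genes are not reported here and were left out of the lists. The tests were run on simulated data with known fold changes. No 2 libraries were duplicates (smallest chi-square per gene 8.98). Intervals and floors cover counting error or the spread between libraries of single mice only.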

Additional observations from a re-analysis of the deposited data

How the results depend on the processing

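None of the 7 genes was called under any of the 17 alternatives. Their log2 fold changes ranged from -0.67 to -0.39 for Umod, -0.43 to -0.25 for Egf, -0.46 to -0.22 for Casr, 0.28 to 0.53 for Trpm6, -1.35 to -0.54 for Pvalb and -0.39 to -0.13 for Cnnm2, each with the same sign throughout. The sign of Ptger3 turned without young mouse 1 (0.031) and without both mice with high Slc14a2 counts (0.11), and it was below 0 in the other 15. The smallest adjusted p over all 7 genes was 0.0560 (Egf, DESeq2). Over all genes, the 287 calls became 873 with DESeq2, 488 with library size alone (which shifts the median log2 fold change by 0.11), 51 without both mice with high Slc14a2 counts, and from 8 (without young mouse 1) to 733 (without aged mouse 4) with each mouse left out. These counts do not say which genes were called, and the cause was not tested. Against the sum of Slc12a1 and Slc12a3, the log2 ratios were -0.75 for Umod, -0.57 for Egf, -0.55 for Casr, -0.47 for Ptger3, -0.51 for Cnnm2, -1.49 for Pvalb and 0.22 for Trpm6, so that those set against Slc12a1 were further below 0, those of Egf, Cnnm2 and Pvalb set against Slc12a3 were nearer to it, and that of Trpm6 changed sign. The labels state no link between mice of the same number, and whether the numbers pair the mice was not tested. Same-numbered deviations correlated at 0.206, 0.038, 0.199 and -0.03, and 3 of 4 aged mice correlated best with their own number. With the replicate number as a block, 130 genes and 0 of the 7 were called, the calls of Slc41a2 and Csf1r were lost and Irx1 was called. Pvalb rested on 31 to 272 counts per library, the fewest of the 7 genes.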
